A study of Homo sapiens with 5 samples.

Results

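The endoplasmic reticulum (ER) genes described here are 46 genes of protein folding and quality control, chosen by name and role from 64252 identifiers in the table: 5 stress sensors and their transcription factors, 17 chaperones and folding factors, 13 disulfide enzymes and 11 genes of ER-associated degradation (ERAD). The choice was made with earlier results of these data known. Of the 46 genes, 44 passed the filter on low counts and entered a test of 15341 genes in all. They were measured by poly(A) RNA-seq in RPE-1 cells, a human retinal pigment epithelial line immortalised with telomerase, here of wild-type genotype. Cells received ON-TARGET Control #1 siRNA (siCtrl, 3 libraries) or a pool of ON-TARGETplus siRNAs against FAM53C (siFAM53C, 2 libraries), each at 5 µM with Lipofectamine RNAiMAX, and were collected after 48 hr. The comparison asks how loss of FAM53C changes transcript levels. The methods speak of duplicates, and no source says that the libraries of a condition came from separate cultures, so p-values measure the spread between these libraries, which may be technical. One pool of siRNAs and one control siRNA were used, so effects of FAM53C loss and other effects of that pool cannot be told apart.

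Secreted and membrane proteins fold in the ER with the help of HSPA5 (BiP), an Hsp70 chaperone driven by ATP, the lectin chaperones calnexin and calreticulin, and disulfide isomerases that are oxidised by ERO1 enzymes. Proteins that do not fold are recognised by lectins, passed through the membrane by the SEL1L and SYVN1 (HRD1) complex and degraded by the proteasome. When unfolded proteins accumulate, the sensors ATF6, ERN1 (IRE1) and EIF2AK3 (PERK) signal to the nucleus, and ATF6 together with XBP1 raises transcription of chaperone and ERAD genes through ER stress elements in their promoters.

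The libraries held 19260124 to 25615415 counts. Levels are given as CPM, each library's counts brought to the same total with TMM factors, and fold changes as the log2 of siFAM53C over siCtrl from edgeR's quasi-likelihood test, with p-values adjusted over all genes tested by the Benjamini-Hochberg method and a threshold of 0.05. The SE of a fold change is its absolute value divided by the square root of the test's F statistic. It is derived from the test and is not an SD between libraries. FAM53C itself, the siRNA target, was at 60.9, 59.7 and 57.6 CPM in siCtrl and at 14.2 and 22.3 CPM in siFAM53C. Its log2 fold change was -1.71 with an SE of 0.19 (adjusted p = 0.003625 in edgeR). The first principal component (39.76% of the variance) set siCtrl replicate 3 and siFAM53C replicate 2, at 33.71 and 44.89, apart from the first 2 siCtrl libraries, at -31.48 and -47.39, with siFAM53C replicate 1 at 0.2642. Differences are therefore also given within a library split drawn from this component: siFAM53C replicate 1 minus the mean of the first 2 controls, then siFAM53C replicate 2 minus siCtrl replicate 3. On the component siFAM53C replicate 1 lay between the sides, and it was placed with the first 2 controls by choice. Of the markers of pigment epithelium, MITF was at 34 to 48.8 CPM, while RPE65 was listed at 0 in every library and RLBP1 and TYR had at most 2 counts. The keratin KRT8 was at 236 to 285 CPM in siCtrl and at 319 and 328 CPM in siFAM53C (0.32 on the log2 scale), and the cadherin CDH2 at 289 to 391 and at 214 and 266 CPM (-0.44). Neither passed the threshold (adjusted p = 0.2225 and 0.2369 in edgeR), and CDH1, EPCAM and KRT19 had at most 5 counts.

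After FAM53C knock-down the folding genes on this list were lower as a group. The list was chosen with earlier results of these data known, so the shift is no independent evidence. Other tested ER genes, described below, had a median log2 fold change of -0.13. By role it was 0.057 for chaperones, -0.074 for ERAD genes, -0.38 for disulfide enzymes and -0.25 for genes grouped with the sensors. The median log2 fold change of the 44 tested genes was -0.37, against 0.016 over all genes tested, and 34 of them lay below 0. In edgeR's test 6 of them (13.6%) were lower, where 3.47% of all genes tested were, and they were HYOU1, EDEM3, HSPA5, ERO1A, ATF6 and MANF. None was higher (0 also at an unadjusted p under 0.05, in DESeq2 and in limma-voom), where 0.489% of all genes were. At an unadjusted p under 0.05, 23 (52.3%) were lower, against 10.5% of all genes, and 6.61% of all genes were higher. In 27 (61.4%) both siFAM53C libraries lay below all siCtrl libraries, a pattern of 18.8% of all genes, and in 5 both lay above, as in 16.7% of all genes. The other 12 overlapped.

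The same direction was seen on both sides of the library split. The split was drawn from these same counts, and its sides re-use the libraries of the fit. The second side compares a single library with a single library. Neither this agreement nor the calls under a term for the split are therefore separate support. The 34 genes below 0 in the fit were below 0 in both within-split differences, 9 were above 0 in both and 1 had mixed signs, and the medians were -0.38 and -0.33. Summed over all 46 genes, the level was 9905, 9939 and 11171 CPM in siCtrl and 6984 and 8417 CPM in siFAM53C, without overlap. HSPA5, HSP90B1, CALR and CANX made up 52.8% to 53% of this sum in siCtrl and 48.6% to 48.8% in siFAM53C. With a term for the library split in the edgeR model, 24 of the genes were lower and 1 higher (FKBP2), against 10.7% and 6.76% of all genes. DESeq2 called 12 lower, against 6.98% lower and 2.02% higher of all genes it tested. Without siCtrl replicate 3, which stood apart, 9 were lower and 0 higher, against 5.91% and 2.76% of all genes. Leaving out another library lowered the count of 6 to 3 (siCtrl replicate 1), 2 (siCtrl replicate 2), 1 (siFAM53C replicate 1) or 3 (siFAM53C replicate 2), and HYOU1 was among the genes called in each. Calls fell over all genes too in these fits, to 1.4%, 1.18%, 0.979% and 1.24% lower in the same order. In bulk RNA, fewer cells that make a transcript and less of it per cell cannot be told apart.

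**Figure D1:**
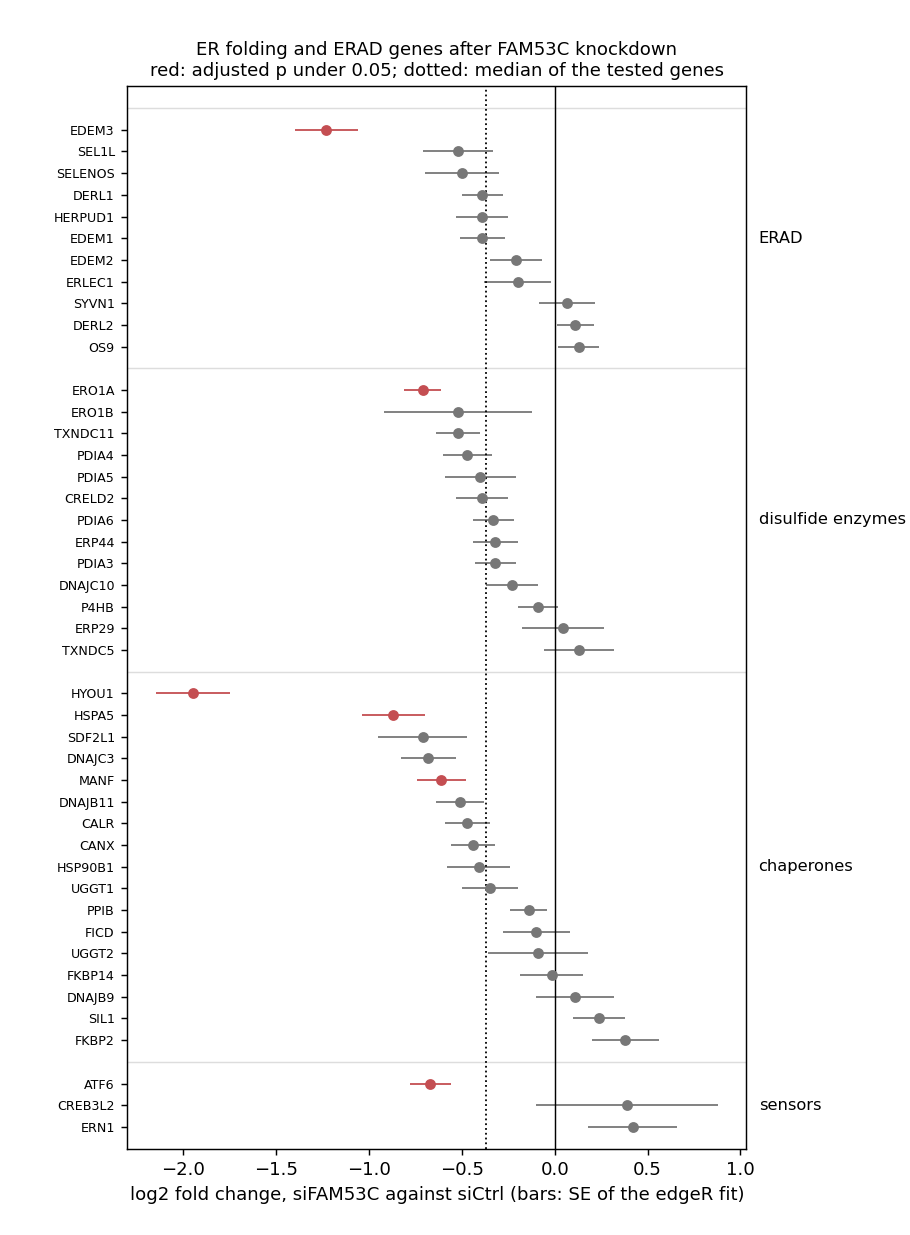
Log2 fold change of the 44 tested genes by role (horizontal axis: siFAM53C against siCtrl, points: edgeR estimate, bars: SE derived from the test's F statistic). The 6 red genes passed the threshold and all lie below 0, from -1.95 for HYOU1 to -0.61 for MANF, and the dotted line marks the median of -0.37.

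Markers of other cell types were read beside these values. Of 4 fibroblast markers, COL1A1, a collagen that is itself folded in the ER, and PDGFRB were higher (0.74 and 0.67 on the log2 scale, adjusted p = 0.03098 and 0.02454 in edgeR), PDGFRA was not called (-0.55) and COL1A2 had at most 7 counts. Their summed level was 51.3 to 61.2 CPM in siCtrl and 90.2 to 93 CPM in siFAM53C. Endothelial markers summed to at most 0.849 CPM and immune markers to at most 1.05 CPM, with CDH5 and CD3E at 0. The part of these genes in the lower ER transcripts was not tested.

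Promoter sequences are shown first for the genes that textbook accounts place under ATF6 and XBP1. In RefSeq promoters of GRCh38.p14, which run from 250 bases before to 50 bases after a gene's start, 43 of the 46 genes had an entry. The ER stress element (ERSE, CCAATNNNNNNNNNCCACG, both strands) was in 8 of these (18.6%) and in 22 of all 27305 promoters (0.0806%). The shorter ERSE-II (ATTGGNCCACG, both strands) was in 3 (6.98%) and in 0.0549% of all promoters, and the core of the unfolded protein response element (TGACGTGG, both strands) in 3 and in 0.795%. The genes were chosen by role and such elements are known from chaperone and ERAD promoters, so the higher shares are no independent evidence. Capitals mark the motif on the strand of the gene, so a motif on the opposite strand reads as its reverse complement. HSPA5 and CALR are shown as the main Hsp70 and lectin chaperone, HSP90B1 because it held 2 elements, HYOU1 because it had the largest change, HERPUD1 and SDF2L1 as the other holders of ERSE-II, and XBP1 because it is itself a target.
HSPA5, ERSE, chr9:125241385-125241414, minus strand: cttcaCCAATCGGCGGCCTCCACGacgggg
CALR, ERSE, opposite strand, chr19:12938379-12938408, plus strand: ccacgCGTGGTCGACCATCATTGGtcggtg
HSP90B1, ERSE, chr12:103930211-103930240, plus strand: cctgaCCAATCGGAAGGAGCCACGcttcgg
HSP90B1, ERSE, opposite strand, chr12:103930316-103930345, plus strand: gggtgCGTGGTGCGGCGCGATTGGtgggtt
XBP1, ERSE, chr22:28800597-28800626, minus strand: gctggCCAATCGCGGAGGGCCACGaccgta
HYOU1, ERSE-II, opposite strand, chr11:119057370-119057399, minus strand: gccccgtgaCGTGGTCCAATcccaggccga
HYOU1, ERSE-II, opposite strand, chr11:119057264-119057293, minus strand: ggcctgggaCGTGGTCCAATgagtacgcgc
HERPUD1, ERSE-II, chr16:56932016-56932045, plus strand: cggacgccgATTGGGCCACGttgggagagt
SDF2L1, ERSE-II, opposite strand, chr22:21642105-21642134, plus strand: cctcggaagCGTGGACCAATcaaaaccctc
The other ERSE holders were CANX, CRELD2, ERO1B and FICD. The unfolded protein response core was in HYOU1, where it overlapped the ERSE-II farther from the start, and in DNAJC10 and TXNDC11.

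The 10 tested genes with an ERSE or ERSE-II all lay below 0, and their median log2 fold change was -0.46. Of these, 2 (20%) were lower in edgeR's test (HYOU1 and HSPA5), and 8 (80%) were below the controls without overlap, against 3.47% and 18.8% of all genes. HYOU1 and HSPA5 are also the only genes among these 10 that hold the 3' UTR heptamer described below. The other tested holders of an element had no call, and the parts of the 2 features were not tested. Among the 31 tested genes with a promoter entry and neither motif, the median was -0.23, 21 lay below 0, and 4 (12.9%) were lower (EDEM3, ERO1A, ATF6 and MANF). Of these 31, 17 (54.8%) were also below the controls without overlap and 5 were above, against 18.8% and 16.7% of all genes. The difference between these sets was not tested. The motif matches are descriptions of letters and not of binding.

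Among the sensors, ATF6, a membrane-bound transcription factor released in the Golgi upon ER stress (ENSG00000118217, chr1:161766298-161977574, plus strand), was at 95.5, 106 and 113 CPM in siCtrl and at 63.6 and 68.2 CPM in siFAM53C. The groups did not overlap, and ATF6 fell by 0.67 on the log2 scale to 62.9% of its siCtrl level (SE 0.11, adjusted p = 0.0213 in edgeR). Within the split the differences were -0.66 and -0.73. The call was lost without siCtrl replicate 1 (-0.73), siCtrl replicate 2 (-0.66), siFAM53C replicate 1 (-0.63) or siFAM53C replicate 2 (-0.72). Over the 13 alternatives to the main analysis the log2 fold change ran from -0.73 to -0.60.

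ERN1, the kinase and RNase that splices XBP1 mRNA, was at 4.58, 4.55 and 4.3 CPM in siCtrl and at 5.59 and 6.37 CPM in siFAM53C. Both siFAM53C libraries lay above the controls, at a log2 fold change of 0.42 that did not pass (SE 0.24, adjusted p = 0.4417 in edgeR). Its level of 0.567 ± 0.02 (SD, n = 3) CPM per kb of its canonical transcript in siCtrl was, with that of ERO1B (0.65 ± 0.242), the lowest of the tested genes, and these did not differ beyond their spread. CREB3L2, a related membrane-bound factor of the secretory pathway, had the highest level among the sensors (39.5 CPM per kb in siCtrl, against 14 for ATF6). It was at 213, 215 and 455 CPM in siCtrl and at 253 and 516 CPM in siFAM53C, so its high values were those of siCtrl replicate 3 and siFAM53C replicate 2, and the groups overlapped. Its log2 fold change was 0.39 in the fit (SE 0.49, adjusted p = 0.7773 in edgeR) and 0.24 and 0.18 within the split, and it turned to -0.22 without siFAM53C replicate 2. XBP1 was listed at 0 in all 5 libraries. ATF6B, a paralog of ATF6, had 2, 0 and 1 counts in siCtrl and 3 and 1 in siFAM53C. ATF6B lies in the MHC region of chromosome 6, where 145 of 171 protein-coding genes had at most 15 counts over the 5 libraries. XBP1 lies outside that region, on chromosome 22, and why it was at 0 was not tested. Neither XBP1 nor ATF6B was read as a level here.

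The chaperones had a median log2 fold change of -0.41. Of the 17, all tested, 14 lay below 0 and 3 (17.6%) were lower in edgeR's test, against 3.47% of all genes. In 11 (64.7%) both libraries were below the controls and in 2 above, against 18.8% and 16.7% of all genes. Their median deviation from the siCtrl mean was -0.055, -0.064 and 0.18 in siCtrl and -0.52 and -0.22 in siFAM53C.

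HYOU1 (GRP170), an Hsp70-like chaperone that serves as a nucleotide exchange factor for HSPA5, changed most (ENSG00000149428, chr11:119044188-119057227, minus strand). It was at 321, 284 and 373 CPM in siCtrl and at 68.8 and 99.9 CPM in siFAM53C. Each siFAM53C library was far below every control, and HYOU1 fell by 1.95 on the log2 scale to 25.9% of its siCtrl level (SE 0.20, adjusted p = 0.002359 in edgeR). It passed in all 13 alternatives to the main analysis, with log2 fold changes of -2.25 to -1.71. HYOU1 shares 667 of 6825 exon bases with annotation on the other strand. Without HYOU1 the median of the folding genes was -0.35.

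HSPA5 (ENSG00000044574, chr9:125234853-125241382, minus strand) was at 1356, 1377 and 1649 CPM in siCtrl and at 677 and 924 CPM in siFAM53C. The groups did not overlap, and it fell by 0.87 on the log2 scale to 54.8% of its siCtrl level (SE 0.17, adjusted p = 0.03467 in edgeR). Within the split the differences were -1.01 and -0.84. The call was lost without siCtrl replicate 1 (-0.92), siCtrl replicate 2 (-0.91) or siFAM53C replicate 1 (-0.67), and with scaling by library totals only (-0.80). MANF, a secreted factor that binds HSPA5 (ENSG00000145050, chr3:51385291-51389397, plus strand), was at 71.5, 67.9 and 66.2 CPM in siCtrl and at 39.6 and 50.3 CPM in siFAM53C. It fell by 0.61 on the log2 scale without overlap (SE 0.13, adjusted p = 0.0495 in edgeR), just inside the threshold. That call was lost in edgeR with the size factors of DESeq2 (-0.60) and with library totals only (-0.54). It was also lost without siCtrl replicate 1 (-0.57), siCtrl replicate 2 (-0.61), siFAM53C replicate 1 (-0.45) or siFAM53C replicate 2 (-0.79). In DESeq2's own Wald test MANF passed (-0.60, adjusted p = 0.004654).

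**Figure D2:**
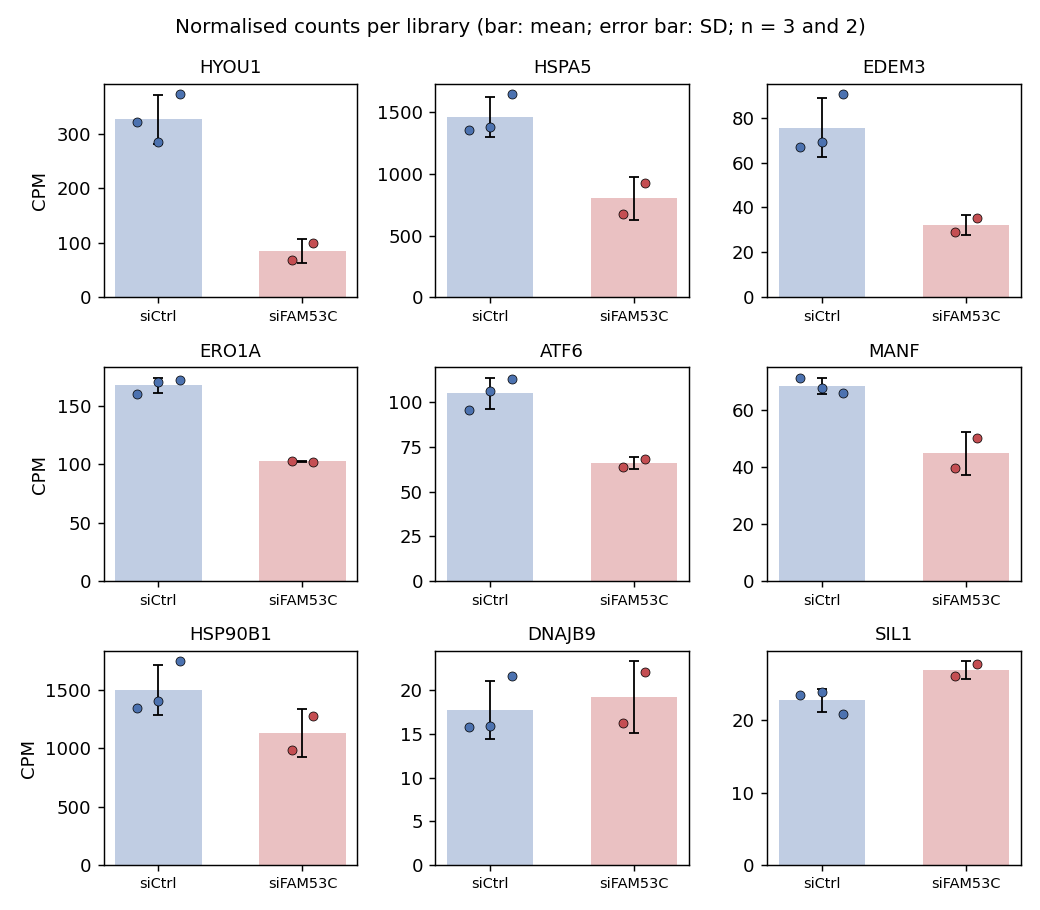
CPM of 9 genes in each library (points), with the mean (bar) and SD (error bar) of siCtrl (n = 3) and siFAM53C (n = 2). The upper 6 panels are the genes that passed, with no overlap between the groups, while DNAJB9 overlapped (15.8 to 21.6 against 16.3 and 22.1 CPM) and SIL1 lay slightly above the controls.

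SIL1, the other nucleotide exchange factor of HSPA5, differed in direction from HYOU1 without passing the test. It was at 23.5, 23.9 and 20.9 CPM in siCtrl and at 26.1 and 27.8 CPM in siFAM53C, above the controls in both libraries, at 0.24 on the log2 scale (SE 0.14, adjusted p = 0.4276 in edgeR). Of the J-domain partners of HSPA5, DNAJB9 (ERdj4), a textbook target of spliced XBP1, was at 15.8, 15.9 and 21.6 CPM in siCtrl and at 16.3 and 22.1 CPM in siFAM53C. The groups overlapped, with a log2 fold change of 0.11 (SE 0.21). DNAJC3 (p58IPK) and DNAJB11 (ERdj3) lay below the controls in both libraries at -0.68 and -0.51 and just missed the threshold (adjusted p = 0.05791 and 0.08232 in edgeR).

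SDF2L1, which works with DNAJB11 and is induced by ATF6 and XBP1, was at 30.6, 26.2 and 25.6 CPM in siCtrl and at 12.4 and 21.3 CPM in siFAM53C. All siFAM53C values were below the controls, at a log2 fold change of -0.71 that did not pass (SE 0.24, adjusted p = 0.1835 in edgeR), and siFAM53C replicate 1 differed more (-1.19 within the split) than replicate 2 (-0.26). FICD, which modifies HSPA5 by AMPylation, was at -0.10 with overlap.

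CALR (calreticulin), a lectin chaperone that binds calcium, had the highest level of all the tested members, at 638 ± 34.1 (SD, n = 3) CPM per kb of canonical transcript in siCtrl. HSP90B1 (GRP94), the Hsp90 of the ER, followed at 539 ± 76.8, with an SD interval that touched that of CALR, and HSPA5 at 373 ± 41.7 was below both by more than their SDs. CALR was at 1281, 1209 and 1151 CPM in siCtrl and at 844 and 903 CPM in siFAM53C, without overlap, at -0.47 on the log2 scale (SE 0.12, adjusted p = 0.07433 in edgeR). HSP90B1 was at 1350, 1406 and 1745 CPM in siCtrl and at 983 and 1277 CPM in siFAM53C, again without overlap, at -0.41 (SE 0.17, adjusted p = 0.2747 in edgeR). Neither passed the threshold. CANX (calnexin), the membrane-bound lectin chaperone, was at -0.44 and UGGT1, which returns unfolded glycoproteins to the lectins, at -0.35, both without overlap. UGGT2, its paralog, was at -0.091 with overlap.

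Among the prolyl isomerases, FKBP2 was at 25.4, 24.5 and 17.6 CPM in siCtrl and at 30.5 and 28.1 CPM in siFAM53C. Both siFAM53C values were above the controls, at 0.38 on the log2 scale (SE 0.18, adjusted p = 0.3434 in edgeR), and FKBP2 passed with a term for the library split (0.45). PPIB (cyclophilin B) was at -0.14 without overlap and FKBP14, which acts on collagen, at -0.016 with overlap.

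**Figure D3:**
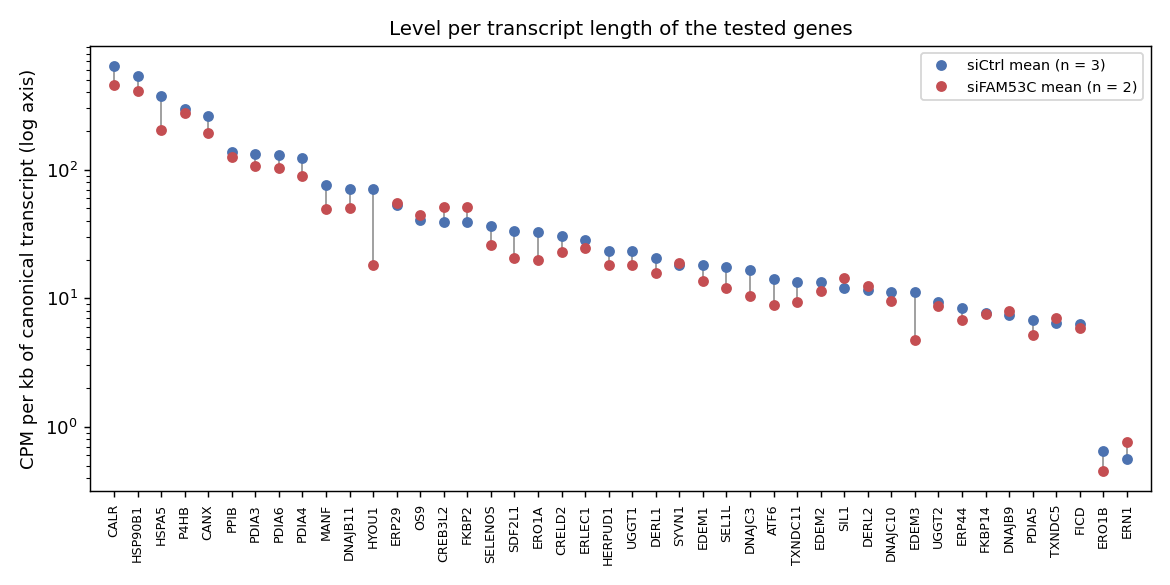
Mean level of the 44 tested genes in siCtrl (n = 3) and siFAM53C (n = 2), in CPM per kb of canonical transcript on a log axis, ordered by siCtrl. Levels in siCtrl run from 638 for CALR to 0.567 for ERN1, and the longest line between conditions is that of HYOU1, from 70.9 to 18.3.

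The disulfide enzymes had a median log2 fold change of -0.33. Of 13, all tested, 11 lay below 0 and 1 (7.69%) was lower in edgeR's test, against 3.47% of all genes, a count too small to set apart from that share. In 8 (61.5%) both libraries were below the controls and in 0 above, against 18.8% and 16.7% of all genes. Median deviations were -0.41 and -0.30 in the siFAM53C libraries, against -0.025 to 0.037 in siCtrl.

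ERO1A, the oxidase that regenerates protein disulfide isomerase (ENSG00000197930, chr14:52639915-52695900, minus strand), was at 160, 171 and 172 CPM in siCtrl and at 103 and 102 CPM in siFAM53C. The libraries of each condition lay close together and did not overlap, and ERO1A fell by 0.71 on the log2 scale to 61.2% of its siCtrl level (SE 0.099, adjusted p = 0.009163 in edgeR). Its call was lost without siCtrl replicate 2 (-0.69), siFAM53C replicate 1 (-0.72) or siFAM53C replicate 2 (-0.70), with nearly the same size each time. ERO1A shares 581 of 7549 exon bases with annotation on the other strand. Its paralog ERO1B, at 2.04 to 4.45 CPM in siCtrl and 2.21 to 2.31 CPM in siFAM53C, overlapped at -0.52 (SE 0.40).

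P4HB (PDI), the most abundant enzyme of the group at 296 ± 4.46 (SD, n = 3) CPM per kb in siCtrl, was at 708, 728 and 725 CPM in siCtrl and at 638 and 716 CPM in siFAM53C. Its groups overlapped, at -0.09 on the log2 scale (SE 0.11, adjusted p = 0.7661 in edgeR). PDIA3 (ERp57), the partner of calnexin and calreticulin, came next at 133 ± 0.919 CPM per kb, which did not differ from PDIA6 (130 ± 6.85) beyond their spread. PDIA3 was at 492, 492 and 486 CPM in siCtrl and at 377 and 407 CPM in siFAM53C, without overlap, at -0.32 (SE 0.11, adjusted p = 0.1746 in edgeR). The isomerases PDIA4, PDIA5 and PDIA6 were at -0.47, -0.40 and -0.33, also without overlap.

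TXNDC11, a thioredoxin-domain protein of the ER membrane, was at -0.52 (adjusted p = 0.06307 in edgeR), CRELD2, induced by ER stress, at -0.39 and ERP44, which retains ERO1 and client proteins in the early secretory pathway, at -0.32, each without overlap. DNAJC10 (ERdj5), a reductase that works with HSPA5 in ERAD, was at -0.23, ERP29, a related chaperone without redox activity, at 0.044 and TXNDC5, another isomerase, at 0.13, each with overlap.

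The ERAD genes had a median of -0.39. Of 11, all tested, 8 lay below 0 and 1 (9.09%) was lower in edgeR's test, again a single gene against 3.47% of all genes. In 7 (63.6%) both libraries were below the controls and in 2 above, the latter near the share of all genes (18.8% below and 16.7% above). Median deviations were -0.45 and -0.29 in the siFAM53C libraries and -0.064, -0.11 and 0.19 in siCtrl.

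EDEM3, a mannosidase that marks misfolded glycoproteins for disposal (ENSG00000116406, chr1:184690237-184754907, minus strand), was at 67, 69.2 and 90.7 CPM in siCtrl and at 29.1 and 35.2 CPM in siFAM53C. The groups did not overlap, and EDEM3 fell by 1.23 on the log2 scale to 42.5% of its siCtrl level (SE 0.17, adjusted p = 0.008899 in edgeR). Without siFAM53C replicate 1 the value was -1.11 and did not pass. The related EDEM1 and EDEM2 were at -0.39 and -0.21, without overlap and without a call.

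OS9, a lectin of the SEL1L complex, had the highest level in the group (40.9 ± 3.01 CPM per kb in siCtrl, SD, n = 3), and its SD interval overlapped that of SELENOS at 36.6 ± 7.36. OS9 was at 117, 101 and 111 CPM in siCtrl and at 120 and 119 CPM in siFAM53C, slightly above the controls, at 0.13 (SE 0.11, adjusted p = 0.6223 in edgeR). OS9 shares 1443 of 8692 exon bases with annotation on the other strand. SELENOS, which links the derlins to the ATPase that extracts proteins, was at 41.9, 37.3 and 54.6 CPM in siCtrl and at 27.2 and 35.7 CPM in siFAM53C, without overlap, at -0.50 (SE 0.20, adjusted p = 0.2448 in edgeR).

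The derlins, membrane proteins of the export channel, took different values. DERL1 was at -0.39 without overlap, while DERL2 was at 45.9, 48.7 and 48.8 CPM in siCtrl and at 50.7 and 52.8 CPM in siFAM53C, above the controls at 0.11 (SE 0.10, adjusted p = 0.658 in edgeR). HERPUD1, a scaffold of the complex and a target of several sensor arms, was at 64, 61.3 and 76.2 CPM in siCtrl and at 46.9 and 55.9 CPM in siFAM53C. It lay below the controls in both libraries, at -0.39 (SE 0.14, adjusted p = 0.2169 in edgeR). SEL1L, the adaptor, was at -0.52 without overlap, and its ubiquitin ligase SYVN1 at 0.066 and the lectin ERLEC1 at -0.20, both with overlap.

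**Figure D4:**
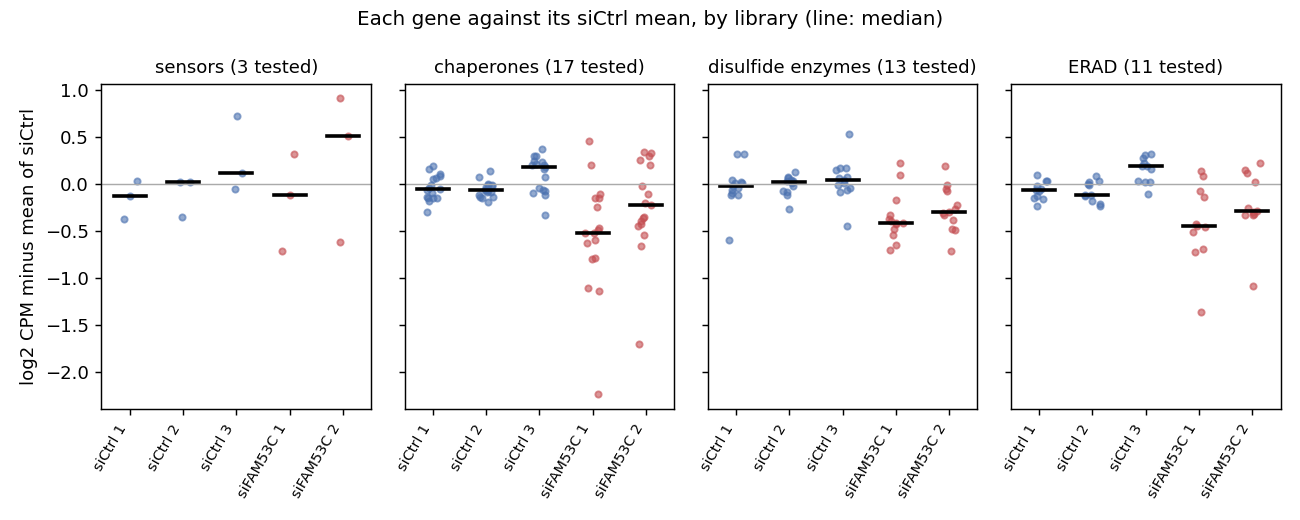
Log2 CPM of each tested gene minus its siCtrl mean (vertical axis) in each library, by role (points: genes; lines: medians). In chaperones, disulfide enzymes and ERAD genes the medians of both siFAM53C libraries (-0.52 to -0.22) lie below those of the 3 siCtrl libraries (-0.11 to 0.19), which is not so for the 3 tested sensors.

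In all, 21 genes lay below the controls in both siFAM53C libraries without passing the threshold. Their log2 fold changes were -0.71 to -0.14, with adjusted p-values of 0.05791 to 0.5769 in edgeR. Such genes were common in the whole table, where 18.8% lay below without overlap and 3.47% were called lower.

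A further 66 ER genes that were not chosen for the list above, of which 60 were tested, served as a comparison within the same pathway. Their median log2 fold change was -0.13, with 6 lower (10%) and 1 higher in edgeR's test, against 3.47% and 0.489% of all genes. In 22 (36.7%) both libraries were below the controls and in 8 above, against 18.8% and 16.7% of all genes. Leaving out siCtrl replicate 1 gave 3 lower and leaving out siCtrl replicate 2 gave 2, against 1.4% and 1.18% of all genes. In each of these fits 0 were higher. The lower ones were mostly disulfide enzymes, of which 4 of 11 tested were lower and the median was -0.38. TMX3, a thioredoxin-like enzyme of the ER membrane, was at 136, 136 and 162 CPM in siCtrl and at 47.8 and 50.3 CPM in siFAM53C and fell by 1.56 on the log2 scale, with an SE of 0.12 (adjusted p = 0.0009798 in edgeR). TXNDC12 (ERp18) fell by 1.26, GPX8, a peroxidase of the ER, by 0.85 and TMX4 by 0.69, each without overlap. The gene that was higher was FAM8A1, a cofactor of SYVN1, at 14.8, 14.9 and 15.2 CPM in siCtrl and 25.5 and 23 CPM in siFAM53C (0.70, SE 0.14, adjusted p = 0.03772 in edgeR). The other ER chaperones were at a median of 0.057 and the other ERAD genes at -0.074. The 8 other genes grouped with the sensors, of which EIF2AK3 is the sensor named above, had a median of -0.25. Of these, 7 lay below 0, as did 7391 of the 15341 genes tested, and 0 were called. At an unadjusted p under 0.05 in edgeR 0 were higher and 2 lower, against 6.61% and 10.5% of all genes. EIF2AK3 was at -0.29 with overlap. The median of 0.39 of the 3 tested sensors above is the value of CREB3L2, which follows the library split, so these medians are no contrast between sensor sets.

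A heptamer, GACAAGA, was looked for in the 3' UTR of each canonical transcript because an earlier analysis of the same counts had picked it from these fold changes, so its link with lower genes is no independent evidence. It was in 7 of the 44 tested genes (15.9%) and in 10.7% of all tested genes with a 3' UTR. Of the 4 genes with it that were lower (HYOU1, EDEM3, HSPA5 and ATF6), 3 are shown, with the heptamer in capitals.
HYOU1, first base 1174 of 1405 after the stop codon: cagctccaaGACAAGAatgaacctg
EDEM3, first base 318 of 3826: ctctggataGACAAGAaacaaaatt
ATF6, first base 2062 of 5416: tgattttcaGACAAGAaccattttc
CREB3L2, TXNDC5 and UGGT1 held it too and were not called, at 0.39, 0.13 and -0.35. FAM53C also holds it once in its 3' UTR, as do 4 of the other ER genes: TMX3 and UBE2J1, which were lower (-1.56 and -0.62), and QSOX2 and MARCHF6, which were not called (-0.33 and -0.41).

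The 7 genes with the heptamer had a median of -0.67, and 4 were lower. Of the 37 without it, 2 were lower (ERO1A and MANF), and the median was -0.33. Among all tested genes the medians were -0.20 with the heptamer, with 16.7% lower, and 0.02 without it, with 2.86% lower. The 3' UTRs were longer in the 7 (median 3826 bases) than in the 37 (846 bases). Their part in the lower levels was not tested.

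**Figure D5:**
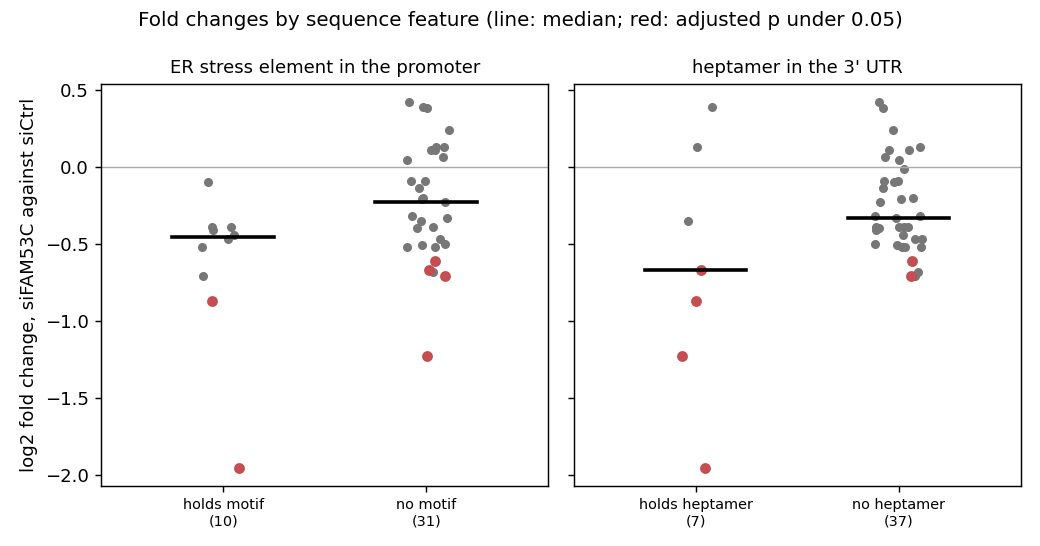
Log2 fold changes of the tested genes (points, red where they passed) by an ER stress element in the promoter (left, 10 with and 31 without) and by the heptamer in the 3' UTR (right, 7 with and 37 without), with medians as lines. Medians were -0.46 and -0.23 on the left and -0.67 and -0.33 on the right.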

How the data were processed

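RNA from 3 siCtrl and 2 siFAM53C libraries of RPE-1 cells was sequenced, and conditions were taken from the sample labels. The authors trimmed paired reads with cutadapt 2.10, aligned them with HISAT2 to hg38 and deposited raw counts per gene from featureCounts, with no normalization or filter; reverse strandedness is given for the alignment only, and the annotation release is not given in the sources used here. If strand was not used in counting, the values of 25 tested genes that share exon bases with the opposite strand are uncertain. Symbols, positions and 3' UTRs came from GENCODE release 44 on GRCh38, which gave a symbol to 56105 of 64252 identifiers; the rest held 0.491% of counts.

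In edgeR 4.0.16 (R 4.3.3), filterByExpr kept genes by a minimum count of 10 and a minimum total of 15, and TMM factors went into a robust quasi-likelihood fit of condition over all 15341 genes. The log2 CPM of the principal components used a prior count of 2. Level per length used the Ensembl canonical transcript. Libraries of 1 condition differed by more than counting error (chi-square per gene of 9.31 to 45.3). Depth, 19260124 to 25615415 counts per library, limits precision for genes with few counts. The fit was also run on simulated counts with known changes, with an outcome not reported here. Those counts held no library split, so that run does not bear on how the split moves the calls. Alternatives were DESeq2 1.42.0, limma-voom (limma 3.58.1), other size factors, no filter, a replicate block, a term for the library split and each library left out.

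The genes, lists and tests were chosen with earlier results of these data known. Values in every library are given for FAM53C, the genes that passed, the 2 most abundant per length in each role, those above the controls in both libraries, and ATF6, ERN1, XBP1, HSPA5, DNAJB9, SDF2L1 and HERPUD1. Other ER genes were named where they passed, at most 4 in a direction, or where they held the heptamer, and EIF2AK3 was named as a sensor.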

Additional observations from a re-analysis of the deposited data

How the results depend on the processing

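The number of folding genes that were lower was 6 and ranged from 1 to 9 when 1 library was left out; it was 1 (HYOU1) without siFAM53C replicate 1, 2 without siCtrl replicate 2, and 3 without siCtrl replicate 1 or siFAM53C replicate 2. It was 14 with no filter on low counts (3.61% of all genes lower) and 12 with DESeq2 (6.98% of all genes lower). Once the library split was a term 24 were lower and 1 higher, against 10.7% and 6.76% of all genes. In the main fit 3.47% of all genes were lower. Titles number the samples, and the numbers were not taken as pairs. Deviations of same-numbered libraries from the mean of their condition had r = 0.169 and -0.285. In the library names the second siFAM53C library carries number 3, with r = 0.371 with siCtrl replicate 3. The 2 siFAM53C libraries mirror each other around their mean, so these r values depend on each other and cannot decide whether a pair holds. With a replicate block by titles 8 folding genes were lower (5.58% of all genes). With a block by library names 22 were lower and 1 higher (8.8% and 4.18% of all genes). With 1 library left out, the count of higher folding genes stayed at 0.

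Of the other ER genes, 6 were lower and 1 higher. Blocked by library names (replicate block), these counts were 15 and 4, against 8.8% and 4.18% of all genes. Under the split term they were 17 and 5, against 10.7% and 6.76%. With 1 siCtrl library left out they were 2 to 8 and 0 to 1, against 1.18% to 5.91% and 0.0395% to 2.76%. With no filter 2 were higher, against 1.41% of all genes. The median of the sensors, on 3 genes, was 0.39 and ranged from -0.22 to 0.50 with a library left out, that of the chaperones from -0.53 to -0.24 and that of the disulfide enzymes from -0.42 to -0.30, with -0.26 for library totals only. The median of all folding genes and that of the ERAD genes moved by less than the spread between libraries.

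The sign changed for 8 genes, of which CREB3L2 follows the library split and the others were at -0.20 to 0.11 in the report. With the replicate block by titles, FICD was at 0.059, UGGT2 at 0.075, FKBP14 at 0.079 and ERP29 at -0.15; with the block by library names SYVN1 was at -0.04; with library totals only FKBP14 was at 0.053. With 1 library left out, the ranges were -0.22 to 0.86 for CREB3L2, -0.13 to 0.31 for DNAJB9, -0.18 to 0.068 for FICD, -0.50 to 0.22 for UGGT2, -0.26 to 0.19 for FKBP14, -0.14 to 0.21 for ERP29, -0.094 to 0.20 for SYVN1 and -0.44 to 0.0062 for ERLEC1. None of these passed the threshold in those fits, and the cause was not tested.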
